A study of Homo sapiens with 6 samples.

Results

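The genes described here make and control cholesterol and fatty acids. They were chosen by name as enzymes of the mevalonate and sterol pathway, regulators of sterol sensing, and lipogenic enzymes, and all 32 have a row among the 19830 genes of the authors' deposited table. All 32 also have an adjusted p-value there, as do 14063 genes in all, which are called tested below. RNA was measured in PANC-1, a cultured human line derived from a pancreatic ductal adenocarcinoma, in 2 libraries of cells given SOX9 siRNA and 2 libraries of cells given control siRNA. Both siRNAs were used at 25 nM with a Lipofectamine reagent in otherwise unmodified cells, and pooled cells were harvested after 48 hours. Stranded total RNA libraries were read as 100 bp pairs to at least 60000000 reads each, per the labels. The comparison asks which RNAs differ when SOX9, a transcription factor of pancreatic duct and progenitor cells, is targeted.

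The mevalonate pathway builds isoprenoid units from acetyl-CoA, and squalene made from them is folded and trimmed to cholesterol. When sterols in the endoplasmic reticulum are low, SCAP escorts the SREBP transcription factors to the Golgi, where they are cut and freed to switch on these enzymes, while INSIG proteins hold SCAP back when sterols are plentiful. SREBF2 mainly serves the sterol genes and SREBF1 mainly the lipogenic genes, which supply fatty acids for membranes and are often highly expressed in tumour cells.

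The table gives, per gene, the authors' mean normalized count over the libraries, the DESeq2 log2 fold change with its standard error, and p-values, with no values for single libraries. The labels do not say whether a group's libraries came from separate cultures, so the p-values reflect only how these libraries vary, and that variation may be technical. Its headers do not name the numerator. Because the siRNA target SOX9 stands at 55.9% of control when the values are taken as SOX9 siRNA over control siRNA (log2 fold change -0.84, standard error 0.26, DESeq2 adjusted p = 0.0643 per the authors' deposited table), that reading is used. All directions would turn if it were wrong. The epithelial keratins KRT8, KRT18 and KRT19 had mean normalized counts of 203350, 130452 and 99583 per the authors' deposited table, with log2 fold changes of 0.55, 0.50 and 0.50 that were not called. The fourth keratin looked up, KRT7, had a mean normalized count of 354 and a log2 fold change of 0.06, also not called, per the authors' deposited table. Of 6 markers of leukocytes, endothelium and fibroblasts looked up, 5 were matched to a row there, with mean normalized counts between 0.551 and 4.37.

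Of the 32 genes, 1 rose and 0 fell when called by the authors' deposited table (DESeq2 adjusted p under 0.05). The gene that rose was ACLY, ATP citrate lyase, which turns cytosolic citrate into the acetyl-CoA that both pathways start from. Over all tested genes, 0.868% rose and 0.939% fell, so that 1 of 32 is a single gene beside that background, and nothing about the set is read from it. At an unadjusted p under 0.05, ACLY was higher and the sterol sensor INSIG1 was lower, which is 2 of 32 beside 11.1% of all tested genes. The median log2 fold change of the 32 genes was -0.02 (98.4% of control), and that of all tested genes was -0.02 as well. Signs were mixed, with 14 positive and 18 negative values.

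The intervals describe how precisely each change was estimated from these libraries. Each is a 95% interval for its own gene, not adjusted for the number of genes. For 19 of the 32 genes, the 95% Wald interval lay wholly within a 1.5-fold change in either direction, and for 31 it lay within a 2-fold change. The same held for 40.3% and 74.8% of all tested genes. Of the 3181 tested genes at or above the set's lower quartile of mean normalized count, 66.4% lay within the 1.5-fold bound. For the 32 genes, which include those below that quartile, the share was 59.4%, so these shares are of unlike sets. The exception to the 2-fold bound was ELOVL6, a fatty acid elongase with a mean normalized count of only 76.4 per the authors' deposited table. With the standard errors at hand, the change needed for a call differed between the genes, with a median of 1.58-fold and values between 1.40-fold for FASN and 3.97-fold for ELOVL6. An observed change smaller than a gene's own value was not called. These values are cutoffs on the estimate and not limits on the true change that the test could detect.

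**Figure D1:**
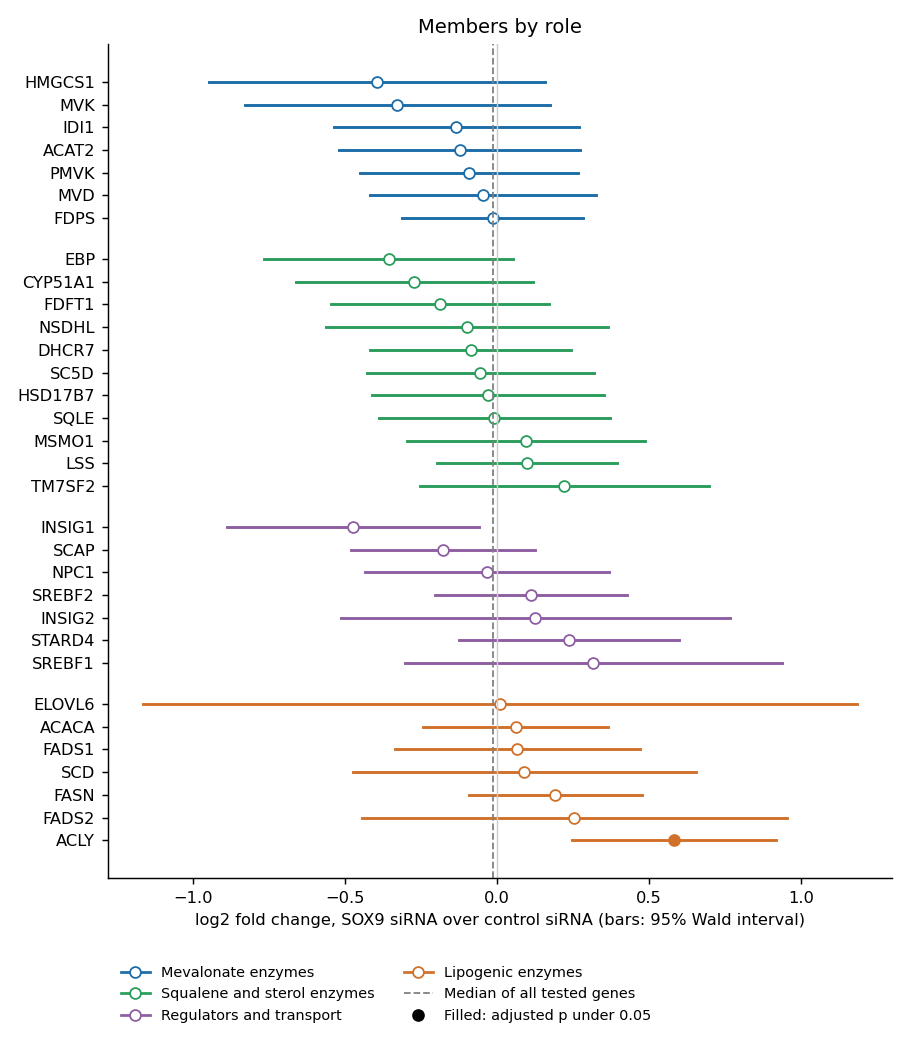
Each point is the log2 fold change of a member, SOX9 siRNA over control siRNA, and each bar its 95% Wald interval, grouped by role; the dashed line is the median of all tested genes at -0.02. The filled point is ACLY at 0.58, and the intervals of the other members include 0 except that of INSIG1 at -0.47.

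The lipogenic enzymes all had positive values, and ACLY was the 1 of 7 that passed. In the authors' deposited table ACLY had a mean normalized count of 15447 over the 4 libraries. With 2 libraries a group, that mean and the fold change imply about 18520.2 in SOX9 siRNA cells and 12373 in control siRNA cells. ACLY rose to 149.7% of control (95% interval 119% to 189%; log2 fold change 0.58, standard error 0.17) and the authors' deposited table gives it a DESeq2 adjusted p of 0.0416. It had the 219th smallest p of the tested genes, of which 254 were called, so it stood near the threshold. It was not called when p-values were adjusted over every gene (adjusted p = 0.0584), or against a null scaled to the spread of all Wald statistics (adjusted p = 0.153).

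The lipogenic enzymes that use the acetyl-CoA from ACLY had smaller values that did not pass. At the start of the mevalonate pathway, ACAT2 and HMGCS1 had negative log2 fold changes of -0.12 and -0.40, also not called, per the authors' deposited table. ACACA, acetyl-CoA carboxylase, which makes malonyl-CoA, stood at 1.04-fold of control per the authors' deposited table (95% interval 0.845 to 1.29). FASN, the fatty acid synthase that extends the chain, stood at 1.14-fold (0.937 to 1.39) in that deposited table of the authors. The implied mean normalized counts of FASN were 52989 in SOX9 siRNA cells and 46437 in control siRNA cells. FASN had the smallest standard error of the set, 0.15 per the authors' deposited table, and its interval excludes a 1.5-fold change in either direction. The interval of ACLY overlaps those of FASN and ACACA, and the differences between genes were not tested.

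Desaturases and the elongase had wider intervals. SCD, which puts the first double bond into saturated fatty acids, stood at 1.06-fold of control (0.720 to 1.57), and its mean normalized count was 73838, per the authors' deposited table. FADS1 and FADS2, neighbouring genes whose enzymes desaturate polyunsaturated fatty acids, stood at 1.05-fold (0.792 to 1.38) and 1.19-fold (0.734 to 1.94) there. ELOVL6 had a log2 fold change of 0.01 with a standard error of 0.60 per the authors' deposited table, and would have needed a 3.97-fold change to be called. The standard error of FADS2, 0.36, was also large for a gene with a mean normalized count of 20927 per the authors' deposited table. Over the 7 lipogenic genes the median log2 fold change was 0.09. Among the 3181 tested genes whose mean normalized count reached 3719, the lower quartile of the set, 35.7% had positive values and the median was -0.07. ELOVL6 lies below that cutoff. Of all tested genes, 47.9% had positive values.

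**Figure D2:**
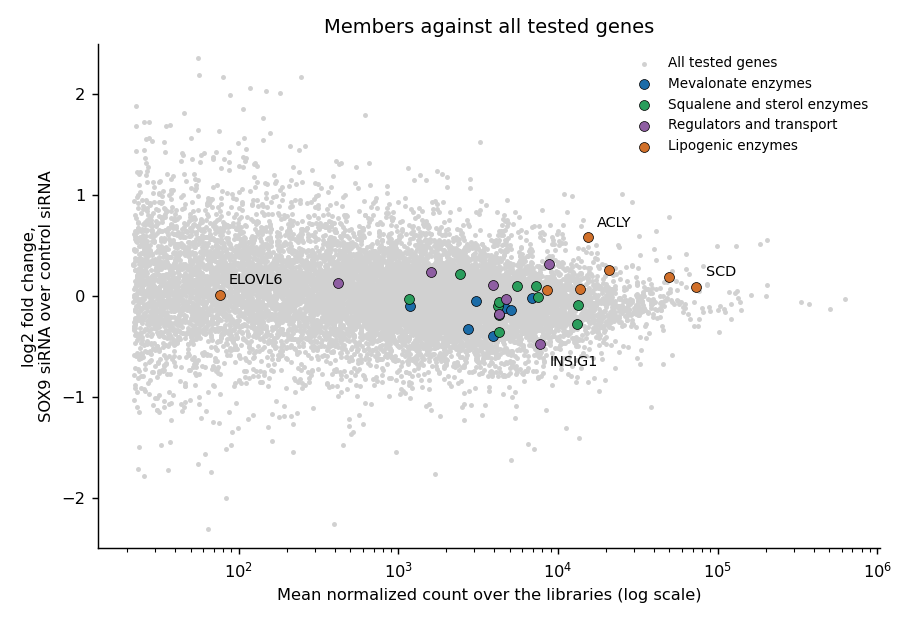
Log2 fold change, SOX9 siRNA over control siRNA, against the mean normalized count on a log scale, for all tested genes (grey) and the members by role; 7 tested genes lie beyond the plotted range of 2.5 in either direction. ACLY is the highest member and INSIG1 the lowest. Other tested genes of similar mean count lie further out, such as SEPT7 (mean normalized count 14277) at 0.75 and DDAH1 (7039) at -1.52.

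Regulators of sterol sensing and transport had 0 calls among 7 genes, with a median log2 fold change of 0.11. Of the 7, 1 had an unadjusted DESeq2 p under 0.05, beside 11.1% of all tested genes. INSIG1, which retains SCAP in the endoplasmic reticulum and is itself a classic SREBP target, had the lowest value of the whole set. It stood at 72.0% of control (95% interval 54.0% to 95.9%; log2 fold change -0.47, standard error 0.21) per the authors' deposited table. Its implied mean normalized counts were 6499 in SOX9 siRNA cells and 9031 in control siRNA cells. Its unadjusted p was 0.0245 and its DESeq2 adjusted p was 0.322 per the authors' deposited table, so it did not pass. INSIG2, its paralogue, which is not strongly driven by SREBP, stood at 109% of control (70.0% to 170%) there, at a mean normalized count of 419. The intervals of INSIG1 and INSIG2 overlap.

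SREBF1 and SREBF2, which encode the SREBP factors, both had positive values that did not pass. SREBF1 stood at 1.24-fold of control (95% interval 0.810 to 1.91) and SREBF2 at 1.08-fold (0.867 to 1.34) per the authors' deposited table. The interval of SREBF2 excludes a 1.5-fold change, while that of SREBF1 reaches beyond it. SCAP, the escort of the SREBP factors, stood at 88.3% of control (71.7% to 109%) per the authors' deposited table. STARD4, a soluble carrier of sterols, stood at 118% (91.7% to 151%), and NPC1, which exports cholesterol from lysosomes, at 97.7% (73.9% to 129%), per the authors' deposited table. RNA levels do not report how much SREBP protein was cut, which was not measured.

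The enzymes from acetyl-CoA to farnesyl diphosphate had 0 calls among 7 genes, and all 7 values were negative. Negative values were also the more frequent among the 3181 tested genes of high mean count described above, of which 35.7% were positive, with a median of -0.07. Of all tested genes, 47.9% had positive values. PMVK, MVK and MVD had mean normalized counts of 1177, 2728 and 3057, below the cutoff of 3719 for those genes. The median log2 fold change of the mevalonate enzymes was -0.12, or 91.8% of control, and 0 of them had an unadjusted p under 0.05 in the DESeq2 test. HMGCS1, which makes HMG-CoA, was the lowest at 76.0% of control (95% interval 51.8% to 112%; DESeq2 adjusted p = 0.678) per the authors' deposited table. Its implied mean normalized counts were 3401 in SOX9 siRNA cells and 4475 in control siRNA cells. MVK, mevalonate kinase, stood at 79.6% (56.3% to 113%) per the authors' deposited table. These 2 genes had the largest standard errors of the group, 0.28 and 0.26 per the authors' deposited table.

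The other 5 mevalonate enzymes lay between 91.1% and 98.9% of control per the authors' deposited table, and the interval of each lay within a 1.5-fold change. By the authors' deposited table they were IDI1, the isopentenyl diphosphate isomerase, at 91.1%, ACAT2, the cytosolic acetoacetyl-CoA thiolase, at 91.8%, and PMVK, phosphomevalonate kinase, at 93.7%. MVD, the decarboxylase that forms isopentenyl diphosphate, stood at 96.8% and FDPS, farnesyl diphosphate synthase, at 98.9% per the authors' deposited table. FDPS had the smallest standard error of the group per the authors' deposited table, and its interval ran from 80.5% to 122% of control.

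The enzymes from squalene synthase to the last reductase had 0 calls among 11 genes, with 3 positive and 8 negative values and a median log2 fold change of -0.06. Of these, 0 had an unadjusted p under 0.05 in the DESeq2 test. EBP, the sterol isomerase of the later pathway, was the lowest at 78.0% of control (95% interval 58.7% to 104%) per the authors' deposited table. CYP51A1, the cytochrome that demethylates lanosterol, stood at 82.7% (63.1% to 108%) per the authors' deposited table. Its implied mean normalized counts were 11978 in SOX9 siRNA cells and 14476 in control siRNA cells. FDFT1, squalene synthase, which commits farnesyl diphosphate to sterols, stood at 87.8% (68.5% to 113%) per the authors' deposited table.

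SQLE, squalene epoxidase, a rate-limiting enzyme, stood at 99.3% of control (76.3% to 129%) per the authors' deposited table. LSS, which cyclises its product to lanosterol, stood at 107% (87.1% to 132%) there. TM7SF2, a sterol reductase, had the highest value of the group at 117% (83.8% to 162%) per the authors' deposited table. The remaining 5 genes lay between 93.3% and 107% of control in that table of the authors. They were NSDHL at 93.3%, HSD17B7 at 97.9% and MSMO1 at 107%, which remove methyl groups from the ring system, and SC5D at 96.2% and DHCR7 at 94.2%, which act in the last steps, per the authors' deposited table. All 5 had intervals within a 1.5-fold change.

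**Figure D3:**
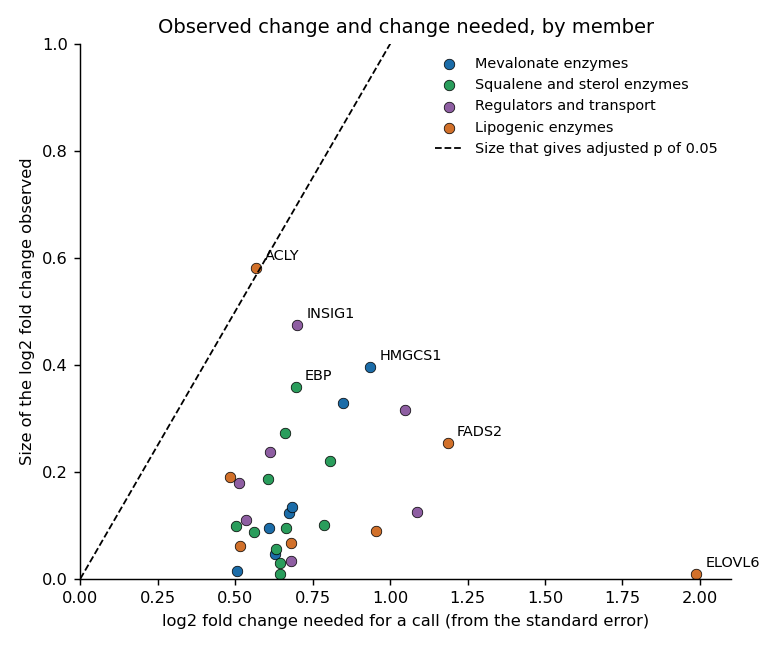
The size of each member's log2 fold change, on the vertical axis, against the size that its standard error would have needed for an adjusted p of 0.05, on the horizontal axis, with the dashed line marking equality. ACLY, observed at 0.58 against a needed 0.57, is the member above the line, and ELOVL6 needed 1.99.

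Genes of neighbouring lipid pathways that are not members were counted in the same way. Of 74 such genes with a row, 71 were tested, and the authors' DESeq2 test called 0 of them at the same threshold, where 1.81% of all tested genes were called in either direction. At an unadjusted p under 0.05 there were 4 of the 71, beside 11.1% of all tested genes. The median log2 fold change of the 71 genes was -0.03, with 34 positive and 37 negative values. Among 19 genes of isoprenoid branches and late sterol steps, LBR, a sterol reductase and lamin receptor of the inner nuclear membrane, had the smallest p, at 161% of control (95% interval 118% to 221%), and the authors' deposited table gives it an adjusted p of 0.106. ACAT1, the mitochondrial thiolase, stood at 85.4% (69.5% to 105%) per the authors' deposited table.

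Among 11 genes of SREBP processing and sterol-sensed degradation, PAQR3, a Golgi anchor of the SCAP complex, stood at 78.7% of control (60.3% to 103%) per the authors' deposited table. Among 18 tested genes of sterol transport, storage and LXR signalling, NPC2, the lysosomal partner of NPC1, stood at 70.1% (53.7% to 91.4%; adjusted p = 0.187) per the authors' deposited table. LIPA, the lysosomal acid lipase, stood at 125% (95.5% to 163%) there. Among 23 tested genes of fatty acid and glycerolipid synthesis, GPAM, which starts glycerolipid synthesis, stood at 61.0% (44.8% to 83.1%; adjusted p = 0.0768) per the authors' deposited table. ACSL4, an acyl-CoA synthetase for polyunsaturated fatty acids, stood at 150.1% (111% to 204%; adjusted p = 0.191), and the elongase ELOVL5 at 90.3% (72.1% to 113%), per the authors' deposited table.

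**Figure D4:**
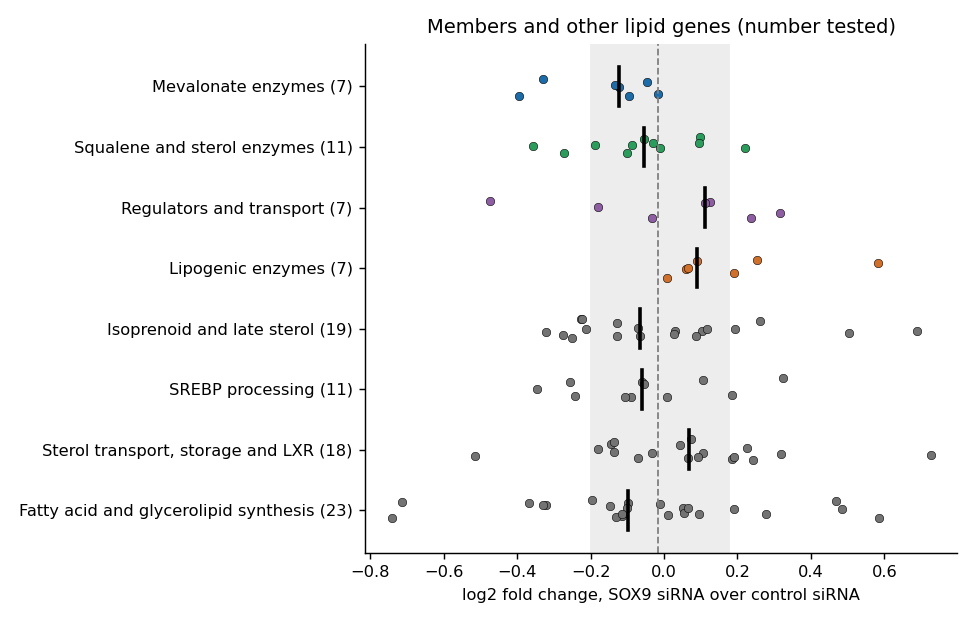
Log2 fold changes, SOX9 siRNA over control siRNA, of the 4 groups of members (coloured) and of 4 lists of other lipid genes (grey), a point per tested gene with a black bar at the median and the number of genes in brackets. The shaded band holds the middle of all tested genes, from -0.20 to 0.18, and the dashed line is their median; the group medians all lie inside the band.

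Promoter sequence was read from RefSeq (GRCh38.p14) windows from 250 bases before to 50 bases after the start of each gene, which held 28 of the 32 genes. Some genes have several starts, so these 28 genes have 38 windows. A gene is counted as holding a motif if any of its windows does. ACAT2, FDFT1, SQLE and FASN were not among them. Shown here are the 250 bases before a start of ACLY, the gene that rose, of INSIG1, the gene with the lowest value, and of SREBF2, whose window held the sterol regulatory element searched. ACLY has a further window with a different start, which is not shown. Capitals mark CCAAT or its complement ATTGG, the box bound by NF-Y, which acts beside SREBP, and in SREBF2 also TCACCCCAC, a match to the sterol regulatory element. The positions are chr17:41919023-41919272 on the minus strand for ACLY, chr7:155297628-155297877 on the plus strand for INSIG1, and chr22:41832855-41833104 on the plus strand for SREBF2.
ACLY: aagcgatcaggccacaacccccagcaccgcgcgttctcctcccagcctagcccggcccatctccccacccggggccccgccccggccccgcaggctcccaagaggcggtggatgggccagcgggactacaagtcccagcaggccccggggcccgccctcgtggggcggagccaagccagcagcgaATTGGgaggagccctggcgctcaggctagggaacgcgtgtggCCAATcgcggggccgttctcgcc
INSIG1: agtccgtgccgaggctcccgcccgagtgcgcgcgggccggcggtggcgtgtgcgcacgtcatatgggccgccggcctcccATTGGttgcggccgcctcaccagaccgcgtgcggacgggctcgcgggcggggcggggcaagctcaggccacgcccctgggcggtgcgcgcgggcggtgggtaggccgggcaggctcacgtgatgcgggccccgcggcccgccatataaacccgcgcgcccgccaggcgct
SREBF2: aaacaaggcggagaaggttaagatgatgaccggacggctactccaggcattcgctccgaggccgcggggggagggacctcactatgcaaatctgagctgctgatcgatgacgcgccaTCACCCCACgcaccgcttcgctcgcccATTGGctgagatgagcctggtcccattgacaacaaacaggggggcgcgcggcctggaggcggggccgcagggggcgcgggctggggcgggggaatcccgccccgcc

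The motifs searched, on both strands, were TCACNCCAC for the sterol regulatory element, CCAAT, the GC box GGGCGG bound by SP1, and ACAAT, the core bound by SOX proteins. CCAAT was in windows of 20 of the 28 genes (71.4%), against 42.7% of 10144 tested genes with a window and 39.7% of all 27305 genes with one. GGGCGG was in 27 of the 28 (96.4%), against 76.9% of the tested genes and 48.3% of all genes with a window. ACAAT was in 4 of the 28 (14.3%), against 22.1% of the tested genes and 31.8% of all genes with a window. The sterol element was in 1 of the 28, where 150 of the 10144 tested genes and 1.39% of all genes with a window held it. Only that 9-letter pattern was searched, within the windows. Other forms of the element and sites outside the windows were not counted, so a gene without a match may still have one. CCAAT and ACAAT cannot match at the same position, although matches on opposite strands can overlap.

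The values of genes with and without these letters are given as a description. The median log2 fold change was -0.02 for the 20 genes with CCAAT and -0.01 for the 8 without it. The 4 genes with ACAAT were PMVK, IDI1, SREBF1 and ACACA, with log2 fold changes of -0.09, -0.13, 0.32 and 0.06 per the authors' deposited table. Their median was -0.02, and that of the 24 genes without ACAAT was also -0.02. SREBF2, with the sterol element in its window, had a log2 fold change of 0.11 per the authors' deposited table. The ACLY and INSIG1 windows, printed above, both hold CCAAT boxes and GC boxes and no ACAAT, while ACLY was higher and INSIG1 had a value below control. SOX9 ChIP-seq was not used here, and binding of SOX9 near these genes is not described.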

How the data were processed

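RNA was measured in 2 SOX9 siRNA and 2 control siRNA libraries, grouped by their titles. Per the submitters' processing notes, HISAT2 2.0.5, featureCounts and DESeq2 1.18.1 were used, and hg19 and mm10 are listed with no role. Settings, and whether counting used strand, are not given in the sources used here. Per the file headers, the deposited table holds the authors' mean normalized count (a signal: counts over size factors), a log2 fold change with its error (log2), a Wald statistic (a score), the p-value and the adjusted p-value. Depth per library cannot be read from it. The 5767 genes without an adjusted p-value had mean normalized counts of 21.93 or less.

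Repeating the Benjamini-Hochberg adjustment on tested genes matched the deposited adjusted p-values to within 9.4e-15. Intervals are 1.96 standard errors each way. Implied group counts were computed from the mean and the fold change, taking 2 libraries a group, and are approximate. Alternatives were a threshold of 0.1, unadjusted p-values, adjustment over every gene, a mean count of at least 100, an empirical null, centring, and a test against 1.5-fold. The call settings, other than the threshold of 0.1 and unadjusted p-values, were first tested on simulated fold changes. Other calculations were not tested on simulated data. All used Python 3.11.15, pandas 2.3.3, NumPy 2.4.6 and SciPy 1.17.1. The members and lists were chosen with earlier results of these data known. All members are named; of each other list, called genes, the 2 smallest p-values and the highest mean count are named. Some genes selected this way are not reported.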

Additional observations from a re-analysis of the deposited data

How the results depend on the processing

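The count of members that rose was 1, ACLY, and it stayed at 1 at an adjusted p under 0.1, at an unadjusted p under 0.05, with genes of a mean count of at least 100, and after centring. It was 0 with adjustment over every gene, with the empirical null and against a 1.5-fold change. Adjusted p-values for ACLY ran from 0.0345 after centring to 0.153 with the empirical null. The count of members that fell was 0 under these settings, except at an unadjusted p under 0.05, where it was 1 (INSIG1). Of the other lipid genes 1, GPAM, was called at an adjusted p under 0.1. The median of the members ran from -0.03 to -0.01 on the log2 scale. Centring moved fold changes by 0.02 and turned the sign of 1 member, SQLE. No paired analysis was possible because the table has no values per library, and for the same reason replicates could not be left out in turn. Precision is limited by the standard errors, from 0.15 to 0.60 among members.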

Other observations

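Some members overlap other genes in the RefSeq annotation (GRCh38.p14), compared by whole gene span and not by exon. Counts from shared stretches could be affected if strand was not used in counting, a setting the sources used here do not give. Of the 32 members, 10 overlap the span of a gene that also has a row per the authors' deposited table. ACAT2 overlaps TCP1, a chaperonin subunit, which had a mean normalized count of 31101 against 4677 for ACAT2 and a log2 fold change of -0.01 per the authors' deposited table. ACAT2 also overlaps SOD2, with a mean normalized count of 4131 and a log2 fold change of 0.27 that was not called, per the authors' deposited table. MVK overlaps MMAB, an enzyme of vitamin B12 metabolism, which had a log2 fold change of -0.06 per the authors' deposited table. The overlapping genes RAI1 at SREBF1 and WDR37 at IDI1 had log2 fold changes of -0.23 and 0.40 per the authors' deposited table, and neither was called. The members FADS1 and FADS2 overlap each other. Pseudogenes named after a member exist for 5 members, and HSD17B7P2 had a mean normalized count of 92.2 and a log2 fold change of 0.13 per the authors' deposited table. Their part in the members' values was not tested.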
